A study of Mus musculus with 12 samples.

Results

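Genes that build the transport system and the entrance gate of the primary cilium were described in the 4 groups. They are the protein-coding genes whose symbols name the intraflagellar transport (IFT) proteins, the Bardet-Biedl syndrome (BBS) proteins, the motors kinesin-2 and dynein-2, the ciliary ARL GTPases and proteins of the transition zone and distal appendages. The symbols gave 50 genes, out of 21950 protein-coding genes and 52550 genes in all. Of these, 49 had enough reads to be tested, and Nphp4, a transition zone gene, did not, with at most 1 read in any library. Tctn2 was left out because the files list it as a processed transcript, although it was read at 17.9 to 34.1 TPM in the D2A1 libraries.

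The RNA came from a pair of mouse breast cancer lines, D2A1 and D2.OR, each from its own mammary tumor. D2A1 is used as the proliferative line and D2.OR as the line that enters dormancy. Each line was grown for a week in 2D on plastic or in 3D on a layer of Matrigel, with 3 libraries in each of the 4 groups, and no treatment or genetic change was labelled. Each line is 1 model, so a difference between the lines cannot be told apart from any other difference between these 2 tumors, and every sample pooled several wells.

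The primary cilium is a single, non-motile projection that most resting mammalian cells can form on the older centriole and that is taken apart before division. IFT-B with the motor kinesin-2 carries cargo to the tip, and IFT-A with the motor dynein-2 carries it back. The BBSome, which ARL6 recruits to the membrane, moves receptors out of the cilium, and the transition zone at the base controls what enters. In mammals, Hedgehog signals pass through this organelle.

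Library totals ran from 47589611 to 73325069 reads, and the smallest was D2A1 2D replicate 1. The replicate number is also the batch and the sequencing lane. In D2A1, the 2D library of batch 1 stood nearer to the 3D libraries than its 2 replicates did, so results that rest on it are also given without batch 1. That batch was singled out by its expression values, so the values without it, and their p-values, describe the remaining libraries and are no independent test. The epithelial markers Epcam and Cdh1 were at or below 0.28 TPM in every D2A1 library, and Krt8 was at 0.78 to 2.31 TPM, against 227 to 1020 TPM in D2.OR. Krt18 was present in both lines and Krt5 in neither. The summed level of the 6 epithelial markers was 205 to 297 TPM in D2A1 2D and 94.0 to 220 TPM in D2A1 3D, and 1160 to 1720 and 422 to 877 TPM in D2.OR 2D and 3D. Of the markers of other cell types, Ptprc (leukocytes) and Cdh5 (endothelium) were at or below 0.05 TPM and Pecam1 (endothelium) at or below 0.40 TPM, while Cd68 (macrophages) was at 2.22 to 32.1 TPM, highest in D2A1 2D. The fibroblast markers were higher in D2.OR, Pdgfra at 59.4 to 149.9 against 14.2 to 33.9 TPM and Col1a1 at 7.65 to 57.1 against 0.26 to 3.33 TPM, and the fat cell gene Plin1 reached 75.0 TPM in D2.OR 3D. The 10 markers summed to 25.7 to 60.6 TPM in D2A1 and 114 to 211 TPM in D2.OR. The part of these markers in the results below was not tested. In bulk RNA, fewer cells with a cilium and less RNA per cell cannot be told apart.

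The transport genes were read at ordinary levels. Their levels are given as TPM, transcript values scaled for gene length and library size, so that genes can be compared. The median over the 49 tested genes was 17.2 TPM, against 13 TPM over all 16823 genes tested, and 35 genes had a mean of at least 10 TPM. The highest means were those of the IFT-B subunit Ift46 (115 TPM), the GTPase Arl3 (98.2 TPM), which releases lipid-modified cargo inside the cilium, and the IFT-A subunit Ift43 (61.5 TPM). At the low end stood the accessory motor Kif17 (0.151 TPM), the chaperonin gene Bbs10 (2.06 TPM) and the BBSome subunit Bbs1 (3.44 TPM). Genes of 1 complex differed widely in level, from 3.44 TPM for Bbs1 to 20.8 TPM for Ttc8 within the BBSome, and from 4.13 TPM for Ttc26 to 115 TPM for Ift46 within the IFT-B core.

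The first comparison asked how the lines differ within each culture. In 2D, 27 of the 49 genes were lower in D2.OR than in D2A1 and 3 were higher (edgeR's quasi-likelihood test, Benjamini-Hochberg adjusted p under 0.05 over all genes). Over all genes, 24.4% were lower and 25.4% were higher. The median log2 fold change of the 49 genes was -0.53, against -0.003 over all genes. In 3D, 25 were lower and 2 higher, where 26.1% of all genes were lower and 27.7% higher, and the median was -0.47. The groups did not overlap for 27 lower and 4 higher genes in 2D, where 25.6% and 27.6% of all genes separated in those directions. Without batch 1, 30 genes were lower and 2 higher in 2D, beside 25.2% and 28.6% of all genes, and 29 lower and 1 higher in 3D, beside 27.2% and 29.7%. The count of calls was smaller without batch 2, with 12 in 2D and 12 in 3D, all lower, where 10.8% and 14% of all genes were lower. Without batch 3 it was 13 in 2D, all lower, beside 14.8% of all genes. It was 17, again all lower, in a fit of the 6 libraries grown in 2D alone, beside 16.9%.

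Of the 49 genes, 21 were lower in both cultures, 6 in 2D only and 4 in 3D only by these calls. With all batches, the difference between the cultures did not pass the test for any of them. Without batch 1 it passed for Dync2h1, Ift122, Ift172 and Ttc8, as given below. Dync2h1, Dync2li1, Ift122, Ift140 (a call kept under 6 of 24 alternative fits) and Ift172 were among the 6, and the 4 were Arl3, Bbs10, Ift22 and Ttc8. A further 14 were called in neither culture. The line differences in 2D and 3D had a Pearson correlation of 0.901 over the 49 genes, beside 0.889 over all genes tested, which describes the genes of 4 groups of libraries in the same batches. The summed level of the 50 genes was 1250, 1380 and 1450 TPM in D2A1 2D and 1010, 934 and 863 TPM in D2.OR 2D. In 3D it was 1250, 1140 and 1050 TPM in D2A1 and 965, 832 and 792 TPM in D2.OR. In each culture, every D2.OR library lay below every D2A1 library.

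**Figure D1:**
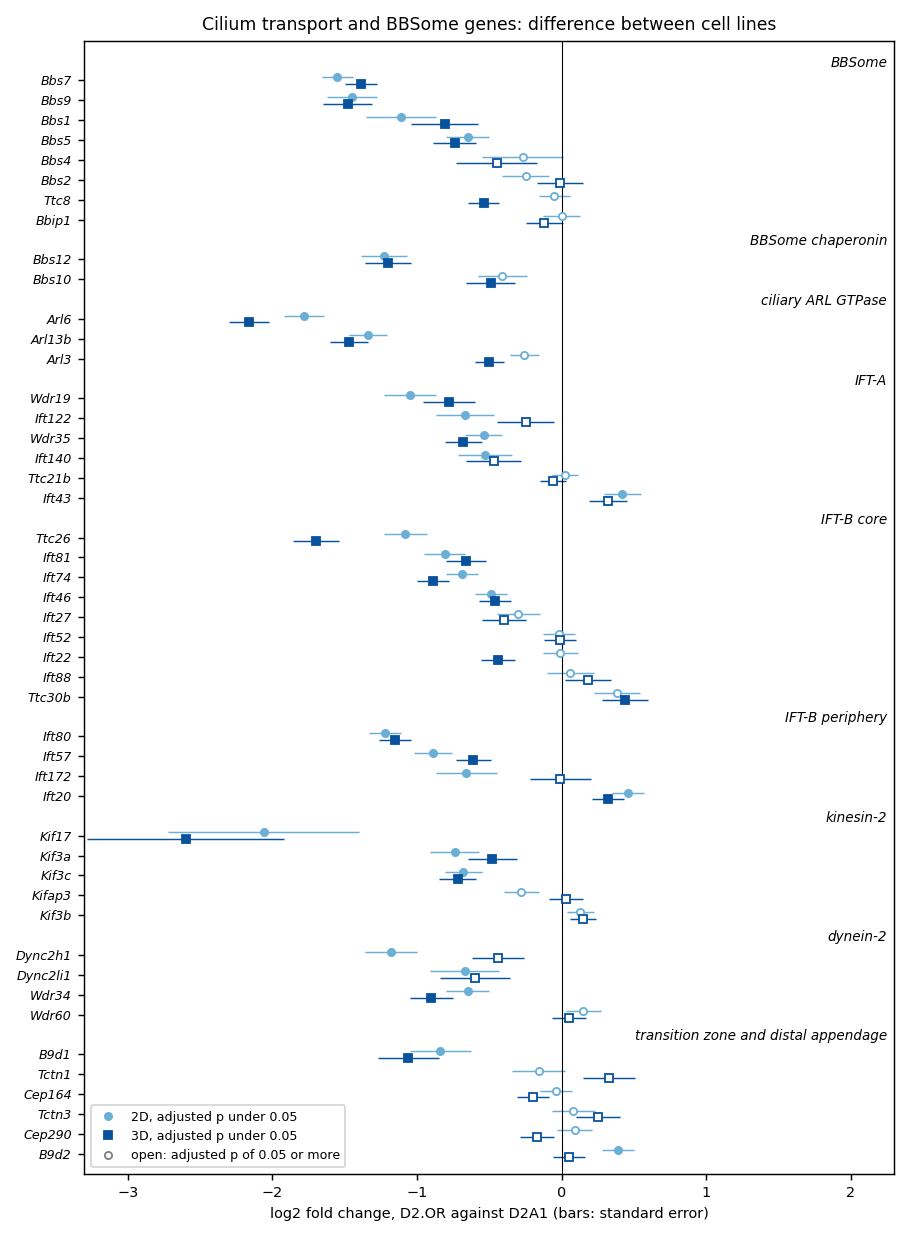
Difference between the cell lines for 47 of the 49 tested genes, by role, as the log2 fold change of D2.OR against D2A1 with its standard error, in 2D (light circles) and 3D (dark squares). Filled symbols passed an adjusted p of 0.05, and most of them lie left of 0, with Ift20, Ift43, B9d2 and Ttc30b to the right.

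Many ciliary genes carry in their promoter an X-box, an inverted repeat bound by RFX transcription factors, so the promoters of the genes were searched for it. The motif searched was GTNNCC, then 0 to 3 bases of any kind, then GGNNAC, which reads the same on both strands, from 250 bases before to 50 bases after each start site. It was found in 10 of the 43 genes with a RefSeq promoter (23.3%), while 4.38% of all genes in the RefSeq table carried it. A stricter form, with GTTNCC and GGNAAC as its arms, was found in 5 genes (11.6%), beside 0.936% of all genes. The 10 were Bbs1, Bbs4, Bbs7, Ift22, Ift57, Nphp4, Tctn1, Tctn3, Ttc26 and Wdr19. In 2D, 5 of them were lower in D2.OR, 4 were not called and 1 was not tested, while 16 of the genes without the motif were lower, 3 higher and 14 not called. Over all genes, 24.4% were lower and 25.4% higher in 2D. Ttc30b, Ift81, Ift122, Ift80 and Dync2li1 were among the genes with no entry. A match describes the letters of the window and not a bound site.

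The 30 bases around the stricter form are shown for the 4 genes in which it begins before the RefSeq start site. Of these, Bbs7, Ift57 and Ttc26 were lower in D2.OR in both cultures, while Tctn3 was not called in either. In Tctn1, the remaining gene with the stricter form, it begins 36 bases after that start. Tctn1 was not called in either culture. They are RefSeq sequences of build GRCm38.p6, written 5′ to 3′ along the gene, with the motif in capitals. They lie at chr3:36613489-36613518 (minus strand) for Bbs7, chr16:49699226-49699255 (plus strand) for Ift57, chr6:38381483-38381512 (plus strand) for Ttc26 and chr19:40612350-40612379 (minus strand) for Tctn3. Counted from the RefSeq start site, the motif begins 121 bases upstream in Bbs7, 60 in Ift57, 33 in Ttc26 and 140 in Tctn3. The GENCODE gene start lies farther upstream, by 88, 61, 55 and 2 bases in that order. Against it the motif begins 33 bases before the start in Bbs7 and 138 before it in Tctn3, but 1 base after it in Ift57 and 22 after it in Ttc26.
Bbs7: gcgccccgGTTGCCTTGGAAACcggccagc
Ift57: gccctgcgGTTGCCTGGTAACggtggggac
Ttc26: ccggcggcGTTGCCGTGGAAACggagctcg
Tctn3: tcccagcgGTTGCCAGGTAACgggaaccac

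The roles hold few genes each, and their counts are to be read against all genes, of which 24.4% were lower in 2D and 26.1% in 3D. Among the 8 BBSome genes, 4 were lower in D2.OR in 2D, 5 in 3D and none was higher. Bbs7, one of the subunits on which the complex is assembled and whose motif is shown above, was read at 35.2, 25.1 and 26.5 TPM in D2A1 2D and at 10.9, 7.67 and 9.83 TPM in D2.OR 2D. The 3D values were 35.3, 24.2 and 22.7 TPM in D2A1 and 12.2, 10.8 and 10 TPM in D2.OR. All D2A1 libraries lay above all D2.OR libraries, and the level in D2.OR was 34.1% of that in D2A1 in 2D (log2 fold change -1.55, standard error (SE) 0.11, edgeR adjusted p = 6.53e-06). In 3D it was 38.0% (-1.39, SE 0.11).

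Bbs9, a further subunit of the complex, was at 12.03, 11.02 and 13.96 TPM in D2A1 2D and 4.32, 4.23 and 4.04 TPM in D2.OR 2D. In 3D the values were 13.05, 9.97 and 9.30 TPM against 4.07, 3.85 and 3.79 TPM. The D2.OR libraries lay close together and well below D2A1, at 36.6% in 2D (log2 fold change -1.45, SE 0.17) and 35.8% in 3D. Bbs1, which binds ARL6, was at 46.2% in 2D and 57.0% in 3D, and Bbs5, a lipid-binding subunit, at 63.6% and 60.1%. Ttc8 was at 18.2 to 24.4 TPM in D2A1 2D and 15.8 to 19.8 TPM in D2.OR 2D, where the groups overlapped, and was lower in 3D (68.5%, log2 fold change -0.54, SE 0.11). Bbs2, Bbs4 and the small subunit Bbip1 passed the test in neither culture with all batches. Without batch 1, Bbs4 was lower in both (log2 fold changes -0.63 and -0.76, SE 0.20 for both, against -0.27 and -0.45 with all batches) and Bbs2 was lower in 2D (-0.45, SE 0.14, against -0.25).

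The chaperonin-like genes Bbs10 and Bbs12 serve the folding and assembly of the BBSome. Bbs12 was at 16.1, 14.4 and 15.1 TPM in D2A1 2D and 4.35, 7.02 and 6.85 TPM in D2.OR 2D, and at 14.1, 16.3 and 15.6 against 5.92, 7.30 and 7.22 TPM in 3D. No D2.OR library reached 7.4 TPM, and the level was 42.7% of D2A1 in 2D (log2 fold change -1.23, SE 0.16) and 43.5% in 3D. Bbs10 was lower in 3D (71.0%, a call kept under 8 of 24 alternatives), and its 2D value (75.0%, adjusted p = 0.0766 in edgeR) missed the threshold with all batches and passed it without batch 1 (adjusted p = 0.0369).

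The largest well-measured difference was that of Arl6, the GTPase that recruits the BBSome. It was at 26.8, 27.6 and 28.5 TPM in D2A1 2D and 28.3, 27.7 and 24.8 TPM in D2A1 3D. In D2.OR it was at 7.14, 8.30 and 7.01 TPM in 2D and 7.04, 5.66 and 5.36 TPM in 3D. The libraries of each line lay close together with a wide gap between the lines, and the level in D2.OR was 29.2% in 2D (log2 fold change -1.78, SE 0.14, edgeR adjusted p = 1.32e-05) and 22.4% in 3D (-2.16, SE 0.14).

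Arl13b, a GTPase anchored in the ciliary membrane that activates ARL3, was at 27.0, 32.2 and 37.4 TPM in D2A1 2D and 9.41, 10.4 and 10.8 TPM in D2.OR 2D. The 3D values were 25.6, 27.0 and 26.3 against 11.1, 9.74 and 10.01 TPM. Again no library of D2.OR reached D2A1, with 39.5% of the D2A1 level in 2D (log2 fold change -1.34, SE 0.13) and 36.0% in 3D. Arl3 itself differed less, at 83.6% in 2D (adjusted p = 0.0643 in edgeR, and 0.0202 without batch 1) and 70.7% in 3D, where it was lower.

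**Figure D2:**
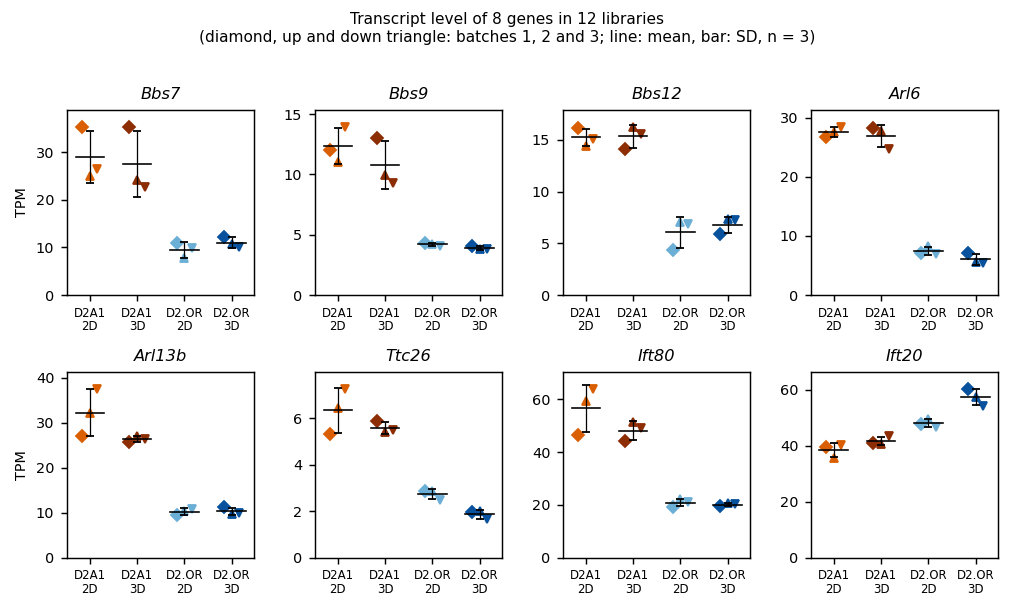
Level in TPM of 8 genes in each of the 12 libraries, by cell line and culture, with symbols for the 3 batches, the mean as a line and the SD as a bar. For Arl6, Arl13b, Bbs7, Bbs9, Bbs12, Ttc26 and Ift80 all D2.OR libraries lie below all D2A1 libraries, and for Ift20 all lie above.

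Of the 6 IFT-A genes, 4 were lower and 1 higher in D2.OR in 2D, and 2 were lower in 3D. Wdr19, the subunit also called IFT144, was at 48.5% of the D2A1 level in 2D and 58.3% in 3D, and Wdr35 was lower in both cultures. Ift43 went the other way, at 45.2, 66.5 and 70.1 TPM in D2A1 2D and 70.8, 72.9 and 77.3 TPM in D2.OR 2D. The lowest D2.OR value was just above the highest D2A1 value (134%, log2 fold change 0.42, SE 0.13, edgeR adjusted p = 0.0272), and without batch 1 the adjusted p was 0.0726. Ift122, with the lowest level of the complex, was lower in 2D (62.8%) with overlapping groups, and Ttc21b was called in neither culture (102% and 96.1%).

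In the IFT-B core, 4 of 9 genes were lower in 2D and none was higher, and 5 were lower and 1 higher in 3D. Ttc26, also called IFT56, whose motif is among those above, was at 5.32, 6.44 and 7.26 TPM in D2A1 2D and 2.85, 2.87 and 2.48 TPM in D2.OR 2D. The 3D levels were 5.88, 5.41 and 5.48 against 1.98, 1.99 and 1.65 TPM. The lines did not overlap, and the difference was -1.08 (SE 0.15) in 2D and -1.70 (SE 0.16, edgeR adjusted p = 3.35e-05) in 3D as log2 fold changes, or 47.3% and 30.8% of the D2A1 level. Ift46, the gene with the highest level, was at 71.4% and 72.9%, and Ift74 and Ift81, the partners that bind tubulin, were both lower in both cultures. Ift52 and Ift88, which the assembly of the core needs, were not called in either culture, at 98.6% and 104% of the D2A1 level in 2D. Ttc30b was higher in 3D (136%, adjusted p = 0.0459 in edgeR) with overlapping groups, and its reads could be shared with the near copies Ttc30a1 and Ttc30a2, which were listed at or below 0.01 TPM.

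All 4 genes of the IFT-B periphery were called in 2D, 3 lower and 1 higher. Ift80 was at 46.5, 59.3 and 63.9 TPM in D2A1 2D and at 19.3, 22.1 and 20.97 TPM in D2.OR 2D, without overlap, and stood at 42.9% in 2D and 44.9% in 3D. Ift57 was at 54.0% and 65.4%. Ift172 was at 63.5% in 2D but 99.6% in 3D (log2 fold changes -0.66, SE 0.21, and -0.01, SE 0.21).

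Ift20, the subunit that also sits on the Golgi and sorts membrane proteins toward the cilium, was the only gene higher in D2.OR in both cultures. It was at 39.6, 35.4 and 40.1 TPM in D2A1 2D and 47.8, 49.6 and 46.8 TPM in D2.OR 2D. In 3D it was at 40.9, 40.7 and 43.3 against 60.2, 57.4 and 54.3 TPM. Every D2.OR library lay above every D2A1 library, with 137% in 2D (log2 fold change 0.46, SE 0.11, edgeR adjusted p = 0.00755) and 125% in 3D, where the adjusted p was 0.0316 and, without batch 1, 0.084.

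Among the motors, 3 of 5 kinesin-2 genes were lower in both cultures. The motor subunit Kif3a was at 46.0, 56.1 and 62.0 TPM in D2A1 2D and 39.5, 26.7 and 27.4 TPM in D2.OR 2D (59.7%), and at 71.7% in 3D, a call kept under 8 of 24 alternatives. Kif3b, the other motor subunit, was at 110% in 2D and 111% in 3D and the adaptor Kifap3 at 82.3% and 102%, with neither called. Without batch 1, Kifap3 was lower in 2D (log2 fold change -0.43, SE 0.09, edgeR adjusted p = 0.00687). Kif3c was lower in both cultures, but 35.3% of its exon bases overlap a gene on the opposite strand, and the sources used here do not say whether strand was counted. Kif17 was nearly silent, with 14, 16 and 37 reads in D2A1 2D, 41, 21 and 14 in D2A1 3D, and between 2 and 8 reads in every D2.OR library. It was called lower in 2D (adjusted p = 0.027 in edgeR), and without batch 1 the adjusted p was 0.0512. Kif17 passed the low-count filter through its D2A1 reads alone, so a call in the other direction was hardly possible. Its call is included in the counts of lower genes but is no evidence of a difference by itself.

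Of the 4 dynein-2 genes, 3 were lower in 2D and 1 in 3D, where 24.4% and 26.1% of all genes were lower. The heavy chain Dync2h1, the motor itself, was at 4.67, 7.94 and 8.04 TPM in D2A1 2D and 2.33, 3.15 and 2.67 TPM in D2.OR 2D (44.0%, log2 fold change -1.18, SE 0.18). Its 3D values were 5.22, 4.67 and 4.13 against 3.30, 3.14 and 3.45 TPM, with 73.9% and an adjusted p of 0.0647 in edgeR. The groups did not overlap in either culture. The intermediate chain Wdr34 was lower in both cultures (63.9% and 53.4%), its partner Wdr60 in neither (111% and 103%), and the light intermediate chain Dync2li1 in 2D (62.9%, kept under 7 of 24 alternatives) and, without batch 1, also in 3D (edgeR adjusted p = 0.00413, against 0.0602).

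Of the 8 transition zone and distal appendage genes, 3 were lower and 1 higher in 2D and 2 were lower in 3D (25.0%, near the 26.1% of all genes), with a median log2 fold change of -0.10 in 2D. B9d1, of the complex at the transition zone membrane, was lower in both cultures (55.9% and 48.0%), whereas its partner B9d2 in the same complex was higher in 2D (131%, adjusted p = 0.0166 in edgeR) and at 103% in 3D. Cep290, the gene of the linker between membrane and microtubules, was at 106% and 89.1%, and Cep164, a distal appendage gene needed to begin a cilium, at 97.3% and 87.2%, with neither called. Tctn1 and Tctn3 were not called, and 19% of the exon bases of Tctn1 overlap Hvcn1 on the opposite strand.

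The second comparison asked how the genes differed between 3D and 2D within each line. The paper's methods describe 2D culture both in DMEM and in the medium used for 3D. A difference of medium therefore cannot be told apart from one of Matrigel. None of the 49 passed edgeR's test in D2.OR or in D2A1, where 1.62% and 3.48% of all genes did. At an unadjusted p under 0.05 there were 8 genes in D2.OR, all lower in 3D, and 16 in D2A1, of which 14 were lower (17.6% and 31.4% of all genes in either direction). DESeq2's likelihood-ratio test called 3 genes in D2.OR, all lower, where 3.78% of all genes were lower, and 8 in D2A1, of which 2 were higher, where 20.9% of all genes were called. In D2.OR, 44 of the 49 genes had a log2 fold change below 0 (89.8%, beside 49.7% of all genes), with a median of -0.20. In D2A1, 36 did (73.5%, beside 49.6%), with a median of -0.15.

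The batches differed in D2A1. The median difference of the 49 genes between 3D and 2D was 0.02 on the log2 scale in batch 1, -0.09 in batch 2 and -0.33 in batch 3, while in D2.OR it was -0.15, -0.24 and -0.12. Without batch 1, 18 genes were called in D2A1, 16 lower and 2 higher in 3D, where 18.9% of all genes were lower and 17.4% higher. Leaving out only the 2D library of D2A1 batch 1 gave 19 calls, and leaving out only its 3D library gave 3. The share of all genes called in these 2 fits is not given, so the counts say nothing particular to the 49 genes. Without batch 2 or without batch 3, edgeR called 0 genes in D2A1, with 2 and 0 at an unadjusted p under 0.05, and 0% of all genes. In D2.OR, 3 genes were called without batch 1, all lower, where 4.70% of all genes were lower.

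Ift172, the largest IFT-B subunit, shows this pattern in D2A1. It was at 21.8, 37.6 and 36.2 TPM in 2D and 19.4, 16.6 and 17.7 TPM in 3D, and the 2D library of batch 1 was the one near the 3D level. The log2 fold change was -0.75 (SE 0.21, edgeR adjusted p = 0.066) with all batches and -1.04 (SE 0.10, adjusted p = 0.000617) without batch 1. The next largest falls without batch 1 were those of the dynein-2 gene Dync2li1 (-0.94), Wdr19 of IFT-A (-0.94), Tctn1 (-0.92), Kif3a (-0.82) and Dync2h1 (-0.79). Their adjusted p ran from 0.00181 to 0.00565 in edgeR, and they belong to the motors, to IFT-A and to the gate. The 2 genes that were higher were the BBSome gene Ttc8 (0.46) and Ift20 (0.41).

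The proliferation genes were read in the same libraries. The sum of 6 of them, Mki67, Top2a, Ccnb1, Cdk1, Bub1 and Ccna2, was 336 to 523 TPM in D2A1 2D and 625 to 1020 TPM in D2A1 3D, and 261 to 568 and 371 to 643 TPM in D2.OR 2D and 3D. With all batches, the adjusted p of 3D against 2D ran from 0.0593 to 0.0798 in D2A1 and from 0.436 to 0.821 in D2.OR in edgeR. Without batch 1, 6 of the 6 were higher in 3D in D2A1, and the adjusted p in D2.OR ran from 0.0927 to 0.413. Between the lines, 4 of the 6 were lower in D2.OR in 3D, while in 2D the adjusted p ran from 0.214 to 0.761 and, without batch 1, Mki67 and Cdk1 were higher in D2.OR. In the test of whether the culture difference differed between the lines, 6 of the 6 were called without batch 1, with a lower change from 2D to 3D in D2.OR. That lower change was not a fall. With all batches, the median log2 fold change of the 6 from 2D to 3D was 0.29 in D2.OR and 1.09 in D2A1. The summed epithelial markers were lower in 3D than in 2D in every D2.OR library, and of the 5 tested, 1 was called lower in 3D in D2.OR with all batches and 3 without batch 1. The part of either list in the cilium results was not tested.

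In D2.OR, Ttc26 had the clearest difference between 3D and 2D, at 1.98, 1.99 and 1.65 TPM in 3D against 2.85, 2.87 and 2.48 TPM in 2D, with no overlap and a like fall in each batch (-0.65, -0.73 and -0.71 on the log2 scale). Its adjusted p was 0.0618 in edgeR with all batches and 0.0281 without batch 1. Dync2li1 also passed without batch 1 (-0.66, SE 0.14) and stood at -0.58 (SE 0.24) with all batches.

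The test of whether the culture difference itself differed between the lines called none of the 49 genes in edgeR, with 4 at an unadjusted p under 0.05, and none with DESeq2, which called 5.61% of all genes. In edgeR over all genes, 0.0238% were called and 17.8% had an unadjusted p under 0.05. Without batch 1, 4 genes were called, where 17.8% of all genes were. Dync2h1 (0.99, SE 0.20), Ift172 (0.86, SE 0.14) and Ift122 (0.71, SE 0.16) had a higher log2 change from 2D to 3D in D2.OR than in D2A1, and Ttc8 a lower one (-0.68, SE 0.15). With all batches their adjusted p in edgeR ran from 0.172 to 0.452.

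**Figure D3:**
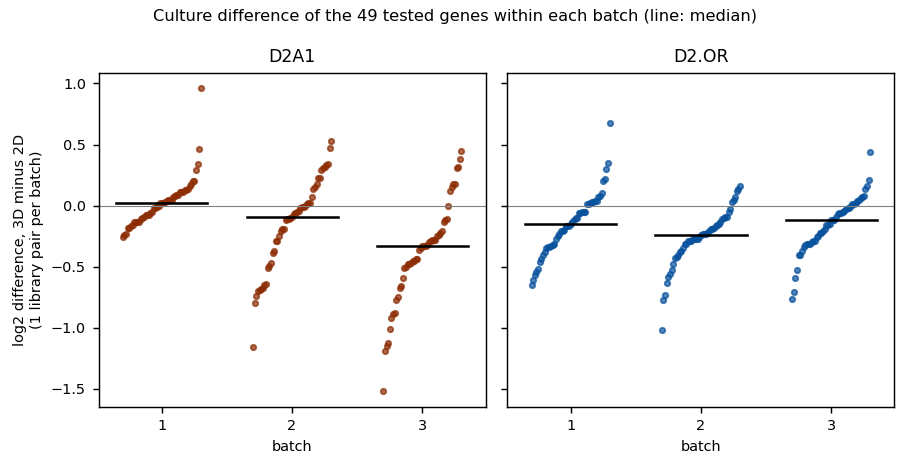
Difference between 3D and 2D on the log2 scale for each of the 49 tested genes within each batch, in D2A1 (left) and D2.OR (right), with the median as a line. In D2A1 the median moves from 0.02 in batch 1 to -0.33 in batch 3, and in D2.OR it lies between -0.24 and -0.12.

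Other genes of the cilium were read from lists by role. The counts of each list between the lines are to be read against all genes, of which 24.4% were lower and 25.4% higher in 2D and 26.1% and 27.7% in 3D. Of 24 tested genes among 26 further transport and gate genes, 13 were lower in D2.OR and 2 higher in 2D, and 13 were lower and 1 higher in 3D. Mks1, a core gene of the transition zone, was at 1.83, 2.67 and 2.77 TPM in D2A1 2D and 2.20, 1.36 and 1.14 TPM in D2A1 3D. In D2.OR it had 1 read in a single library and none in the other five, so it was at least 48.0-fold lower in 2D and at least 43.2-fold lower in 3D, against a floor of 3 reads per library. Anks6, which acts with the inversin compartment above the transition zone, had between 202 and 381 reads in every D2A1 library and 0 or 1 read in every D2.OR library. It was at least 104-fold lower in 2D and at least 95.3-fold lower in 3D.

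Iqcb1, also called nephrocystin-5, was at 33.5, 40.8 and 36.0 TPM in D2A1 2D and 8.10, 8.61 and 8.98 TPM in D2.OR 2D, or 30.4% (log2 fold change -1.72, SE 0.12). In 3D it was at 31.5%, and the lines did not overlap. The gate genes of the main set and of this list thus include 3 that were nearly absent from a line or from both, namely Mks1 and Anks6 in D2.OR and Nphp4 in every library.

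Of 20 basal body and ciliogenesis genes, 8 were lower and 5 higher in 2D, and 10 lower and 4 higher in 3D. Ccp110, which caps the centriole and holds back cilium growth, was at 14.4, 14.1 and 16.9 TPM in D2A1 2D and 4.32, 6.10 and 6.78 TPM in D2.OR 2D (42.0%, log2 fold change -1.25, SE 0.09). Fbf1, a distal appendage gene, was at 52.4%. Ehd3, a membrane-shaping gene of early ciliogenesis, had at most 6 reads in any D2A1 library and 1013 to 6071 in D2.OR, and rose from 2D to 3D in D2.OR (log2 fold change 1.41, SE 0.27, edgeR adjusted p = 0.0421). Of 9 tested genes of cilium disassembly, 4 were lower in 2D and none higher, and 6 were lower and 1 higher in 3D. Hdac6, which deacetylates the tubulin of the axoneme, was at 69.2% and 51.4%, and the kinases and kinesin of disassembly Nek2 and Kif24 were lower in both cultures.

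Among 17 tested Hedgehog pathway genes, 5 were higher and 7 lower in D2.OR in 2D, and 5 and 5 in 3D, where 25.4% and 24.4% of all genes were called in 2D and 27.7% and 26.1% in 3D. The ligands Shh, Ihh and Dhh stayed at or below 0.51 TPM in every library. Gli1, a transcription factor and target of the pathway, was at 1.61, 1.12 and 2.82 TPM in D2A1 2D and 16.4, 10.2 and 8.33 TPM in D2.OR 2D, and at 2.38, 2.65 and 2.40 against 26.9, 14.9 and 9.88 TPM in 3D. All D2.OR libraries lay above all D2A1 libraries (log2 fold change 2.77, SE 0.34 in 2D and 2.73, SE 0.33 in 3D). Gli2, the main activator, had 1209, 3423 and 2550 reads in D2A1 2D and 4, 1 and 0 in D2.OR 2D, and 1634, 1303 and 1103 against 1, 1 and 6 in 3D. The 2 factors thus stood in opposite order between the lines. Ptch1 and Hhip of the same list did not follow Gli1. Ptch1 had a mean of 26.7 TPM in D2A1 2D and 13.5 TPM in D2.OR 2D, and of 22.3 and 16.9 TPM in 3D. Hhip had means of 1.17 and 0.0267 TPM in 2D and of 1.43 and 0.0967 TPM in 3D. Activity of the pathway was not tested. The co-receptor gene Cdon was lower in D2.OR in 2D (23.0%), where D2A1 was at 39.5, 41.4 and 28.8 TPM, and fell in D2A1 from 2D to 3D to 15.8, 7.68 and 7.39 TPM (log2 fold change -1.85, SE 0.28, edgeR adjusted p = 0.025). The means of Gas1 and Boc went the other way in 2D, from 39.8 and 1.02 TPM in D2A1 to 88.3 and 3.16 TPM in D2.OR. The Gas1 libraries of the lines overlapped.

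**Figure D4:**
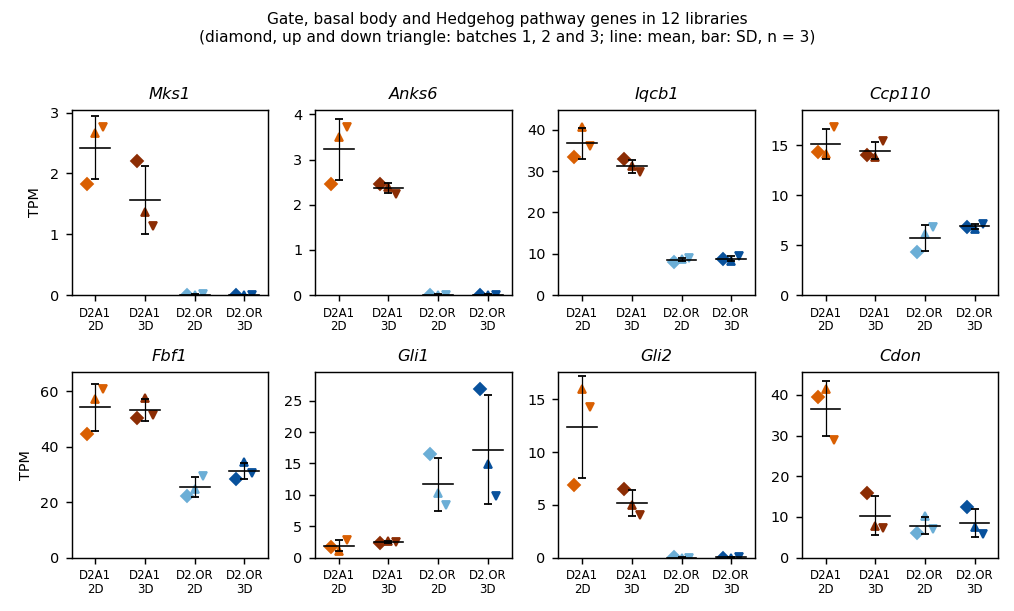
Level in TPM of gate, basal body and Hedgehog pathway genes in each of the 12 libraries, with symbols for the 3 batches, the mean as a line and the SD as a bar. Mks1, Anks6 and Gli2 lie at 0 in D2.OR on this scale, Gli1 lies higher in all D2.OR libraries, and Cdon is highest in D2A1 2D.

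Of 9 tested genes among 14 RFX and multiciliogenesis factors, 1 was higher and 1 lower in 2D, and 1 higher and 2 lower in 3D. Without batch 1, 3 were higher and 2 lower in 2D, beside 28.6% and 25.2% of all genes. Rfx5 was lower in 2D (64.0%), with an adjusted p in edgeR of 0.0171 that became 0.169 without batch 2 and 0.156 without batch 3. The mean of Rfx1 was 12.5 TPM in D2A1 2D and 13.6 TPM in D2.OR 2D. In the same order, the 2D means were 4.73 and 2.88 TPM for Rfx2, 2.88 and 2.52 TPM for Rfx3, and 23.4 and 17.3 TPM for Rfx7. The part of any RFX factor in the levels of the cilium genes was not tested. Glis3, which sits in the cilium of kidney cells, was higher in both cultures (166% and 221%). Foxj1, the master factor of motile cilia, was at or below 0.62 TPM in all libraries, with 44, 1 and 2 reads in D2A1 2D and 63, 31 and 28 in D2.OR 2D. Its log2 fold change in 2D was 1.89 (SE 0.76, edgeR adjusted p = 0.0646) with all batches. Without batch 1 it passed the test (adjusted p = 0.000693), but D2A1 2D then had no library over 3 reads, so no fold is given. Of 13 genes of the motile axoneme, 9 stayed under 1 TPM everywhere, and the list summed to 5.20 to 8.21 TPM in D2A1 and 1.35 to 2.17 TPM in D2.OR. Of the 4 that were tested, Dnaic2, Ccdc39 and Ccdc40 were lower in D2.OR in both cultures, with Dnaic2 at 4.26 to 4.62 TPM in D2A1 2D and 0.43 to 1.08 TPM in D2.OR 2D.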

How the data were processed

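The 12 RNA-seq libraries (D2A1 and D2.OR, 2D and 3D, 3 each) were grouped by their labels. Per the labels and the paper's methods, the authors trimmed reads with Trimmomatic 0.32, aligned them with STAR 2.5.3 to GRCm38 with GENCODE annotation and quantified genes with RSEM 1.3.0. The deposited expected counts are RSEM's estimates, not normalized and not always whole. The deposited TPM values were computed by the authors, scaled by gene length and by library, so depth is lost in them. The deposited FPKM values were not used. Columns without a sample numbered 0.

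The expected counts were rounded (10.7% to 11.8% of genes in a library were not whole). Library totals set the depth, and they cover counting error only. The main test was edgeR 4.0.16 (R 4.3.3), quasi-likelihood, with TMM, the default filter on low counts (16823 of 52550 genes), a term per group and a block for batch over all 12 libraries, with Benjamini-Hochberg adjustment. Log2 CPM used a prior count of 2. The labels pair the libraries by batch. As a check, deviations from the group means correlated at 0.0758 to 0.511 (median 0.267) over 18 pairs of like number, with a median of -0.195 over the others. Nothing in the labels says that replicates are separate cultures beyond the batch, so p-values measure the spread between these samples. The test was tried on simulated counts and recovered 48% of 100 genes changed by a log2 fold of 1, and 78% at a log2 fold of 2, for the 2D comparison of 16823 genes. For 3D against 2D in D2A1 it recovered 45% and 76%, with 7.63% false among the calls, and for the interaction 17% and 63%. Each simulation changed 200 genes, far fewer than were called between the lines. Adjusted p depends on that number, so these shares do not carry over to the line comparisons. Where no library of a group had over 3 reads, folds were computed against that floor and are bounds. Exon overlaps were taken from the GENCODE annotation and promoters from RefSeq (GRCm38.p6), where 43 of 50 genes matched. Genes named were the called genes with the largest change (6 per direction), the highest and lowest of each role, and the 3 genes with the smallest p of each list. Other genes are named where a count or a role calls for it, and those were chosen after their values were seen. Values of a few genes of the set are not reported here, although the counts include them. The genes and lists were chosen with earlier results of these data known. Alternatives were DESeq2 1.42.0, limma 3.58.1 on log2(TPM + 1) and log2(TPM + 0.1), other scalings and filters, only the groups compared, no batch block, and each batch or library left out.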

Additional observations from a re-analysis of the deposited data

How the results depend on the processing

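The count of cilium genes called between the lines (30 in 2D, 27 in 3D) ranged from 12 to 34 in 2D and from 12 to 35 in 3D when a batch or library was left out, and was 17 in 2D with only the groups compared. Without the replicate block it was 27 in 2D and 25 in 3D, and the pairing of libraries by batch changed no count by over 1.5 times. With the library total in place of TMM, the median of all genes moved to -0.17 in 2D, that of the cilium genes to -0.69, and the calls were 1 higher and 31 lower in 2D and 0 higher and 31 lower in 3D, so that Ift43 and B9d2 in 2D and Ift20 and Ttc30b in 3D were no longer higher. Between cultures, leaving out a batch or library gave 0 to 4 calls in D2.OR, 0 to 19 in D2A1 and 0 to 6 for the interaction. The share of all genes is given above for only some of these fits. DESeq2's likelihood-ratio test gave 3 and 8 calls in D2.OR and D2A1, the fit of only the groups compared gave 3 in D2.OR, and limma on log2(TPM + 0.1) gave 1 in D2A1. The log2 fold change of Top2a in 2D was -0.43 and ranged from -0.80 to 0.06 with a batch or library left out, turning above 0 without batch 1 (0.06) and without D2A1 2D replicate 1 (0.02), and the cause was not tested. The stricter promoter motif was found in 11.6% of genes in place of 23.3%.

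Of the values of the genes named for their size or p between the lines under the alternatives, 956 stayed on their side of the threshold with their direction, called or not, 74 lost a call, 11 gained one and 2 turned in direction. Of the cilium genes called between the lines, 12 in 2D and 12 in 3D were called under all 24 alternatives, while 3 in 2D and 4 in 3D were called under no more than 12. Among these were Ift140 (6 of 24) and Dync2li1 (7) in 2D, and Bbs10, Kif3a and Ttc30b (8 each) and Ift20 (12) in 3D. Ift43 (13), Kif17 (15), Ift122 and Ift172 (16 each) and B9d2 (17) came next, all in 2D. Outside the set, Rfx5 in 2D kept its call under 17 of 24. Foxj1 in 2D, not called with all libraries, gained a call under 6 of 23 alternatives. Depth limits Kif17, Mks1, Anks6, Gli2 and Nphp4, which had few or no reads in at least 1 group.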
